A study of Mus musculus with 6 samples.

Results

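Circular RNAs (circRNAs) that list several annotated genes were described across 6 libraries of mouse hippocampus. A circRNA was a member when its row of the deposited table held 2 or more Ensembl gene identifiers, which gave 786 of 10652 circRNAs. Another 9208 listed 1 gene and 658 were intergenic. The membership rule used no expression value. The mice were adult male C57BL/6J animals, 8 to 10 weeks old when obtained. The strain is given as C57BL/6 in the sample labels. In the chronic unpredictable stress (CUS) group, 3 libraries came from mice that met varied stressors in random order for 4 weeks, among them food or water deprivation, restraint, cold swimming and a tilted cage. The Control group had 3 libraries from mice of the same source. The labels do not say whether a library is 1 mouse, so each p-value refers to the spread among these libraries, which may be partly technical.

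A circRNA forms when a splice donor is joined back to an acceptor upstream of it, which closes the RNA between them into a ring. One ring normally carries exons of a single host gene. Genes can nest, though: small nucleolar RNAs (snoRNAs) and microRNAs (miRNAs) often lie in introns of longer genes, processed copies of other genes land there too, and some annotated genes run through a neighbour and share its exons. A ring that covers such a stretch overlaps several annotated genes without having to join exons of different genes. Rings that do hold exons of neighbouring genes are known as read-through circRNAs.

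Among the 81 miRNA genes listed by 116 members, 50 had a mature sequence in RefSeq (GRCm38.p6), 86 sequences in all. The sequences below belong to miRNA genes inside the members described next or to miRNAs that share a seed. They are 5′ to 3′, with the seed (bases 2 to 8), the part that pairs with targets, in capitals.
mmu-miR-1898: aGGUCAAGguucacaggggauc
mmu-miR-3104-5p: uAGGGGGCaggagccggagcccucu
mmu-miR-5624-5p: uAUUGUAAacucugccuu
mmu-miR-107-3p: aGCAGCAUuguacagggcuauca
mmu-miR-103-3p: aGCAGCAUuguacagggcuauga
mmu-miR-107-5p: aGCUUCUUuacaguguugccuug
mmu-miR-103-1-5p: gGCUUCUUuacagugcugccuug
mmu-miR-453: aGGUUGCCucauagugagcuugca
mmu-miR-496a-5p: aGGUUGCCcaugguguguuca
mmu-miR-495-3p: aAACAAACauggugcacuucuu
mmu-miR-1192: aAACAAACaaacagaccaaauu
Among the 86 sequences, 4 seeds were held by more than 1. They were shared by miR-107-3p and miR-103-3p, by the 5p arms of the same hairpins, by miR-453 and miR-496a-5p, and by miR-495-3p and miR-1192.

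The miR-107 and miR-103 hairpins lie in introns of pantothenate kinase genes, which code for the first enzyme of coenzyme A synthesis. Mir107 (chromosome 19, 34820687 to 34820773, minus strand, GRCm38) lies within Pank1 (34806940 to 34879455). Mir103-1 (chromosome 11, 35782396 to 35782481, plus strand) lies within Pank3 (35769484 to 35791285). Each arm shares its seed with the same arm of the other hairpin. The 4 circRNAs that list Mir107 and Pank1 had summed levels of 287, 1361 and 1992 in the Control libraries (replicates 1 to 3, the order used throughout) against 1256, 732 and 1587 under CUS, with overlapping groups. A level is 10 to the deposited value, scaled by the authors for each library, and 0 means that the circRNA is listed at 0 there. The circRNA of Mir103-1 and Pank3 was above 0 only in Control replicate 1, at 203, and CUS replicate 3, at 217. These are levels of rings listed with the hairpin gene, not of the mature miRNA.

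Most members consisted of a long gene with short genes inside it. In 517 of 786 members (65.8%) every other listed gene lay within the longest one and outside its annotated exons. In 65 more the inner genes touched an exon of the longest gene, in 187 at least 1 gene reached outside it, and 17 listed an identifier that the annotation did not hold. Of all members, 656 listed 2 genes, 83 listed 3 and 22 listed 4, and the most was 42. A protein-coding gene was listed by 724 members and a processed pseudogene by 120. TEC genes, short models that still await experimental support, were listed by 196, snoRNA genes by 64 and snRNA genes by 50.

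By gene type, 214 members combined 1 protein-coding gene with small RNA genes, 159 with TEC genes, 109 with pseudogenes and 68 with long noncoding RNA genes. Another 139 listed 2 or more protein-coding genes and 56 listed none. The small RNA class carried 26.9% of the members' summed level, the TEC class 19.4% and the class with several protein-coding genes 17.1%. Median mean levels per circRNA in these 3 classes were 93.1, 95.8 and 114. Of the 786, 779 were classed by the authors as exonic and 7 (0.891%) as intronic, against 463 of 9208 single-gene circRNAs (5.03%).

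**Figure D1:**
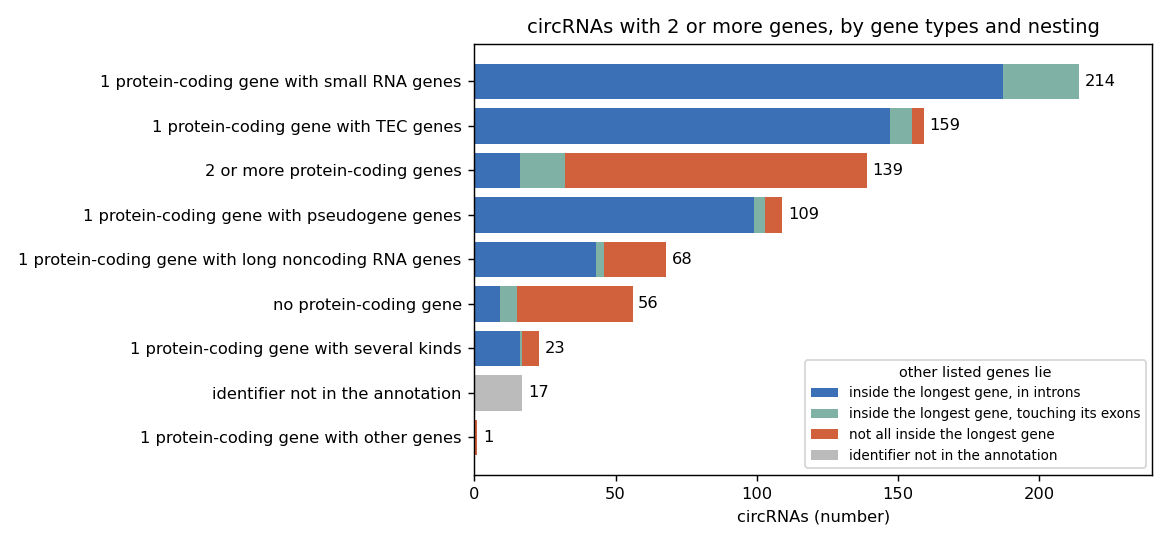
Number of circRNAs (x axis) in each gene-type class of members (rows), divided by where the other listed genes lie relative to the longest gene (colours). All 214 circRNAs with a protein-coding gene and small RNA genes have the small genes inside the host, 187 of them in introns, while 107 of the 139 with several protein-coding genes have a gene that reaches outside the longest.

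Genes of a member lay on the same strand. All 769 members with every identifier in the annotation had their genes on 1 strand. The 363 protein-coding genes that were the longest of their member overlap 962 annotated genes on their own strand and 571 on the opposite strand (37.2% of those overlapping). Members listed 437 of the 962 same-strand genes and 0 of the 571 opposite-strand genes. A member thus records that a ring overlaps same-strand annotation, and whether RNA of each listed gene is in the ring was not measured. Of these 363 genes, 96.1% overlap a same-strand gene somewhere, against 30.0% of 3272 protein-coding genes that had single-gene circRNAs only. Opposite-strand neighbours were found for 63.4% and 53.9%. The 363 were also longer, with a median of 105923 bases against 72957.5. These shares describe the annotation and carry no test, since listing several genes requires a same-strand neighbour.

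Detection of members was compared with that of single-gene circRNAs. Of 786 members, 293 (37.3%) were above 0 in 1 library and 71 (9.03%) in all 6. The shares were 35.9% and 7.65% of single-gene circRNAs. Per library, 41.0% to 43.9% of members were above 0 in Control and 38.7% to 41.9% in CUS. The members' share minus the single-gene share was 0.616 ± 1.17 percentage points (SD over 6 libraries), higher in 5 of 6 libraries (exact paired permutation test, two-sided, p = 0.25). The median level of the circRNAs above 0 differed by -0.01 on the log2 scale (SD 0.05, n = 6, exact paired permutation test, p = 0.6875). Neither difference exceeded the spread between libraries. The detection difference changed sign when only exonic circRNAs were compared.

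**Figure D2:**
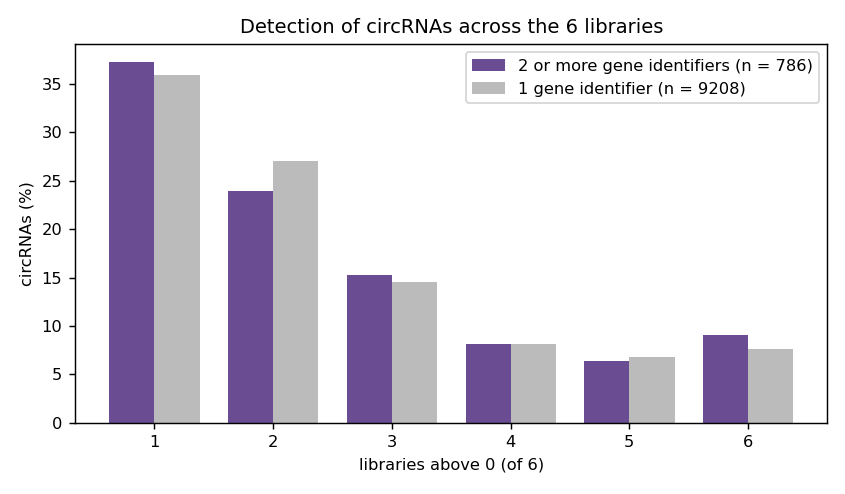
Share of circRNAs (y axis, percent) by the number of libraries in which each was above 0 (x axis), for 786 members (purple) and 9208 single-gene circRNAs (grey). In both, the largest share was above 0 in 1 library, 37.3% and 35.9%.

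Many hosts made both kinds of ring. Of the 363 protein-coding genes, 238 also had single-gene circRNAs (896 of them, beside 475 members) and 125 had none. Over the 238, a median of 32.8% of the host's summed level came from members, and in 63 (26.5%) members gave over 50%. Crim1, which codes for a transmembrane protein with cysteine-rich repeats, had 5 members with a mean summed level of 3467 and 6 single-gene circRNAs with 677. Rev1, a translesion DNA polymerase gene, had 1 of each, at 3050 and 97.1. Rabgef1, an activator of the small GTPase Rab5, had members only.

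The 71 members above 0 in every library carried 39.6% of the members' summed level, and the 10 of highest mean carried 14.6%. The highest was mmu_circRNA011363, listed with Gm47283 and the pseudogene Mid1-ps1 on chromosome Y. Its level was 3339, 3764 and 10889 in Control against 6693, 3405 and 3189 in CUS. Control replicate 3 stood above the other libraries, and the groups overlapped. Mid1-ps1 is a copy of the X-linked gene Mid1, so the source of these reads is uncertain.

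The next was mmu_circRNA000174 of Rev1 (chromosome 1, 38052786 to 38129801, minus strand), with Gm37062, a 1011-base sense-intronic RNA gene, in an intron. Its level was 1275, 1878 and 4380 in Control against 3160, 4914 and 2691 in CUS. The third was mmu_circRNA004849 of Crim1 (chromosome 17, 78200248 to 78376592), with the 86-base miRNA gene Gm25069 in an intron, at 1671, 2582 and 1234 in Control against 1636, 3071 and 3833 in CUS. For both, Control and CUS ranges overlapped.

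The steadiest member above 0 in all 6 libraries was mmu_circRNA010377 of Maml2, a coactivator of Notch signalling, listed with the miRNA gene Gm22643, which touches a Maml2 exon. Its level was 1994, 2196 and 2673 in Control against 2099, 957 and 1954 in CUS, a coefficient of variation of 0.285. The median coefficient over the 71 was 0.623 and the highest 1.11. After Maml2 came Ralgps2 with Gm37943 (0.324), Hnrnpu with 2 identifiers not in the annotation (0.347), Rabgef1 with Gm15920 (0.377) and Hira with Gm28539 (0.383). Hira encodes a histone H3.3 chaperone and Hnrnpu a nuclear RNA-binding protein.

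**Figure D3:**
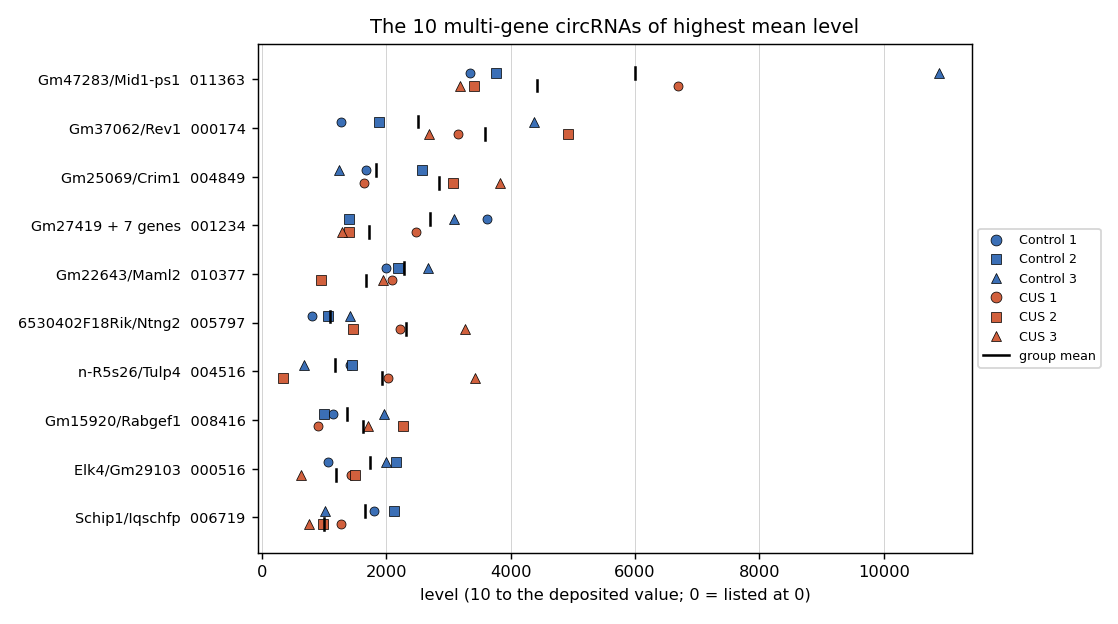
Level in each library (x axis, linear) of the 10 members of highest mean level (rows, with listed genes and the end of the circRNA name). Blue points are Control, orange points CUS, shapes mark replicates, and black ticks are group means. Every CUS point lies above every Control point in the row of Ntng2, and the groups overlap in the other rows.

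Rings over 2 or more protein-coding genes came in 3 kinds. In 107 of the 139 the listed genes share exonic bases, in 16 they overlap without shared exons, and in 16 a stretch of 259 to 48740 bases separates at least 1 gene from the next. The first kind includes gene models that join neighbours. Iqschfp spans Iqcj and Schip1, and mmu_circRNA006719, listed with Schip1 and Iqschfp, was at 1806, 2123 and 1021 in Control against 1276, 984 and 750.2 in CUS. Gm20498 spans Synj2bp, which codes for a mitochondrial outer membrane protein, and Cox16, a cytochrome c oxidase assembly factor. Its member mmu_circRNA002482 was at 596, 1909 and 442 in Control against 254, 1318 and 886 in CUS. Both overlapped between groups. Gm20388, a model of 4434882 bases on chromosome 8, was listed by 18 members with genes that included Tcf25, Usp10, Gse1 and Galnt2. Since such a model shares exons with its neighbours, these members can be ordinary rings of the shorter gene. Reads of the overlapping genes cannot be told apart.

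The 16 members with separated protein-coding genes include the candidates for rings between neighbouring genes. Cavin4 and Tmeff1 lie 382 bases apart, and mmu_circRNA007216 was at 623, 325 and 0 in Control against 0, 646 and 690.4 in CUS. 1700102P08Rik and the deubiquitinase gene Usp4 lie 259 bases apart, and mmu_circRNA010923 was at 0, 504 and 479 in Control against 0, 438 and 207 in CUS. In both, libraries of each group were above 0 and at 0. The circRNA of Tubb2b and Tubb2a, β-tubulin genes 48740 bases apart, was above 0 only in Control replicates 1 and 3, at 128 and 258. The circRNA of Itm2b and the tumour suppressor gene Rb1, 36403 bases apart, was above 0 only in Control replicate 3, at 521. Tubb2a and Tubb2b are closely similar, so reads can be placed in either. Of the 16 members, 4 were above 0 in 1 library and 4 in all 6, and those 4 lie in a tandem array on chromosome 5 (Gm10220, 5031410I06Rik, Gm10471 and neighbours). Of these 4, mmu_circRNA007909, mmu_circRNA007910 and mmu_circRNA007911 had the same level in every library, 164, 171 and 176 in Control against 448, 183 and 185 in CUS. In total 17 members fell into 8 sets that shared a gene and had identical values in all 6 libraries, zeros included. Of the 8 sets, 4 were above 0 in 1 library only and 3 in 3 or more.

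Noncoding loci held the longest gene lists (loci described here were chosen after their identifiers were seen). Snhg14 (chromosome 7, 59307924 to 59975759, minus strand) is the host transcript of the SNORD116 and SNORD115 snoRNA arrays of the Prader-Willi region, which are expressed in brain from the paternal allele. There, 16 members listed 2 to 42 genes each and 116 distinct snoRNA genes in all, while the identifier of Snhg14 was listed by 0 of them. Their summed level was 1171, 1810.2 and 869.8 in Control against 1586, 1350.2 and 2797 in CUS, with overlapping groups. The most often detected, mmu_circRNA009331 with 12 snoRNA genes, was above 0 in 5 libraries, at 289.7, 0 and 311 in Control against 366, 315 and 337 in CUS. The one with 42 genes, mmu_circRNA009339, was at 0, 623 and 0 in Control against 0, 331 and 671 in CUS. Copies within the arrays are near-identical, so which copies a ring ends at is uncertain. Of the 16, 6 were above 0 in 1 library only.

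**Figure D4:**
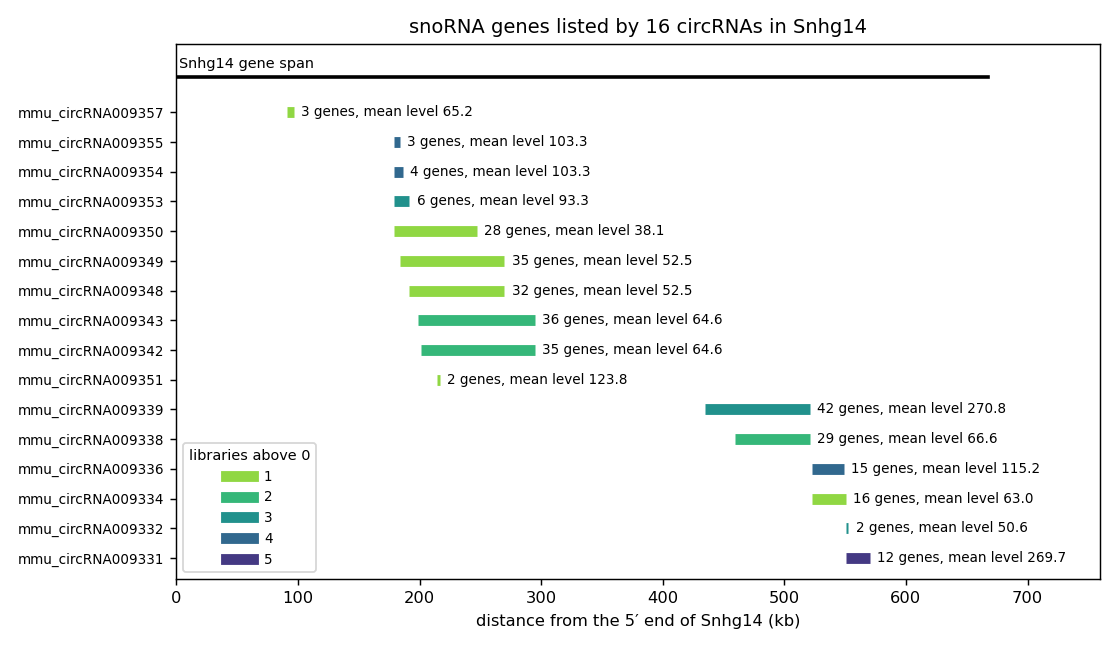
Span from the first to the last listed snoRNA gene of the 16 members in Snhg14 (x axis, distance in kb from the 5′ end of Snhg14, whose span is the black line). Colour gives the number of libraries above 0, and each bar carries the number of genes and the mean level. Several spans share an end, and the longest list holds 42 genes.

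At Rmst (chromosome 10, 92071037 to 92165170, minus strand), a long noncoding RNA gene known from neurogenesis, 6 members listed 4 to 8 genes, mostly short models such as Gm27419 and Gm27366. Their lists nest in each other, and all start at Gm27419, 29362 bases from the 5′ end of Rmst. The ring with 8 genes, mmu_circRNA001234, was at 3612, 1399 and 3082 in Control against 2479, 1393 and 1294 in CUS, the fourth highest mean of all members. The others had mean levels of 135 to 188. Groups overlapped.

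In the imprinted Meg3-Rian-Mirg region (chromosome 12, 109541001 to 109749460, plus strand), expressed from the maternal allele, 6 members listed 10 miRNA and 5 snoRNA genes. The circRNA mmu_circRNA002656 listed Mir377, Mir496a, Mir154, Mir453, Mir485, Mir668 and Mirg, and was at 0, 303 and 0 in Control against 0, 323 and 318 in CUS. It thus lists the genes of both miR-453 and miR-496a-5p, which share the seed printed above. Over the 6 members the summed level was 0, 2496 and 0 in Control against 383, 742 and 764 in CUS. Control replicate 2 held the highest sum and the other Control libraries were at 0.

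In total, members did not differ between CUS and Control beyond the spread of the libraries. Members above 0 numbered 332, 345 and 322 in Control against 304, 329 and 329 in CUS (exact permutation test, two-sided, p = 0.4). Their summed level was 154686 ± 9902 in Control against 150680 ± 1144 with stress (SD, n = 3 per group, exact permutation test, p = 0.5). That was 7.08%, 7.70% and 8.00% of all circRNA signal in Control and 7.47%, 7.46% and 7.57% in CUS (exact permutation test, p = 0.7). Sums of the 9 gene-type classes overlapped between groups in every class, with exact permutation p of 0.2 to 0.9 and an adjusted p of 0.9 (Benjamini-Hochberg over the 9). The smallest p that 3 against 3 allows is 0.1.

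For single circRNAs, limma was fitted to the 3896 circRNAs above 0 in at least 3 libraries, of which 305 were members. At a Benjamini-Hochberg adjusted p under 0.05, 0 of 305 members were called, against 0.0% of all tested, and the smallest adjusted value was 0.577. With no adjustment, p was under 0.05 in 17 members (5.57%) against 6.01% of all, 5 higher in CUS (1.64% against 2.75%) and 12 lower (3.93% against 3.26%). In 21 members (6.89%, background 5.78%) every CUS library lay above every Control library, and in 20 (6.56%, background 5.08%) below. Of these, 3 of the 21 and 9 of the 20 were at 0 in every library of the other group. This split was not counted over all tested circRNAs, so it is not read as a trait of the members. Such rings passed the filter through 1 group alone, so their separation was fixed by the filter. The split by direction moved with the libraries and the filter: without CUS replicate 2 it was 9 higher and 7 lower, and with all 6 libraries required above 0, which leaves out every ring listed at 0 in CUS, it was 4 higher and 0 lower. The median log2 difference was -0.23 over the members and -0.12 over all tested, and the members' value lay between -0.208 and -0.075 with each library left out. Of the tested members 138 were fitted higher and 167 lower (54.8% lower, against 52.8% of all tested). These shares were near the background. The named members below are those of smallest p and sufficient level, given as measurements, since none passed adjustment. As 8 were named as higher and only 5 had an unadjusted p under 0.05 in that direction, some named members lie above 0.05.

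Among members higher in CUS, mmu_circRNA004135 had the smallest p. It is listed with Dgcr2, a gene of the DiGeorge critical region that codes for an adhesion receptor, and with Gm20518 (chromosome 16, 17835277 to 17898562 together, minus strand). It was listed at 0 in all 3 Control libraries and at 793, 207 and 666 in CUS. It passed the filter through the CUS libraries alone. The fitted log2 difference, on log2(level + 45.5), was 3.55 (SE 1.32, limma adjusted p = 0.577), and no fold is given against libraries at 0.

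Ring mmu_circRNA001738 of Rabep1, an endosome fusion effector, with the ribosomal pseudogene Rpl23a-ps2 in an intron, was at 227, 0 and 0 in Control against 831, 594 and 612 in CUS. Ring mmu_circRNA000773 of Enah, an actin regulator at growth cones, with the TEC gene 2700078F05Rik, was at 0, 285 and 79.8 in Control against 946, 425 and 1109 in CUS. For both, every CUS library was above every Control library (limma adjusted p = 0.577 for each). The more abundant Enah ring mmu_circRNA000772, with the same 2 genes, was at 2554, 444 and 941 in Control against 1203, 1009 and 802 in CUS. Its CUS mean was the lower one, and the contrast between these rings was not tested. Summed over its 7 rings with these genes, Rabep1 was at 2421, 2547 and 689 in Control against 3334, 2832 and 1805 in CUS, with overlap.

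Ntng2 codes for netrin-G2, a membrane-anchored protein of the presynaptic side that organizes synapses. Its ring mmu_circRNA005797, listed with the transcript gene 6530402F18Rik, was at 801, 1059 and 1415 in Control against 2223, 1460.5 and 3264 in CUS. The groups did not overlap, though Control replicate 3 and CUS replicate 2 were close (log2 difference 1.02, SE 0.56, limma adjusted p = 0.872). Summed over the 3 rings with these genes the level was 925, 1059 and 1676 in Control against 2650.3, 2015 and 4175 in CUS, again without overlap.

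Zfr, a zinc finger RNA-binding gene, holds Mir1898 (chromosome 15, 12171492 to 12171574) in an intron. Its 5 members summed to 937, 1760 and 1341 in Control against 3956, 1751 and 4427 in CUS, with CUS replicate 2 just below Control replicate 2 (log2 difference 1.24, SE 0.49, limma adjusted p = 0.748). Most of this came from mmu_circRNA003616 and mmu_circRNA003613. The first was at 340.4, 608 and 380.4 in Control against 1253, 599.8 and 2096 in CUS. The second was at 321, 567 and 380.4 in Control against 1194, 568 and 1998 in CUS. The rings moved together in every library, and whether they share reads was not tested. Single-gene rings of Zfr were at 0, 330.3 and 545 in Control against 522, 349.6 and 707 in CUS.

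The other members named as higher were those of Eri3, Hecw2 and Ip6k1. The Eri3 ring mmu_circRNA007514 (with miRNA gene Gm25559) was at 79.7, 345 and 503 in Control against 439, 1092 and 1541 in CUS. The Hecw2 ring mmu_circRNA000220, of a ubiquitin ligase gene with a small nuclear RNA gene inside, was at 147, 106 and 93.1 in Control against 318, 976 and 584 in CUS. Every CUS library lay above every Control library for Hecw2, while the Eri3 groups overlapped. Summed over the 6 rings with the same genes, Hecw2 was at 1147, 1508 and 93.1 in Control against 318, 1358 and 1658 in CUS, with overlap. The Ip6k1 ring mmu_circRNA010922, of an inositol phosphate kinase gene with the overlapping model Gm20662, was at 0, 0 and 306 in Control against 755, 301 and 302 in CUS, with overlap.

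Among members lower in CUS, several were listed at 0 in all 3 CUS libraries. Trip12, a ubiquitin ligase gene (chromosome 1, 84721189 to 84840516), with the TEC gene Gm38374 in an intron, gave mmu_circRNA000364 at 709.7, 589.9 and 303 in Control and at 0 in every CUS library. It passed the filter through the Control libraries alone (fitted log2 difference -3.60, SE 1.31, limma adjusted p = 0.577), as did the rings of Senp5, Elk4, Kcnh7 and Inpp5b at 0 in CUS below, so that such a ring could only differ in this direction. The other Trip12 ring with the same genes, mmu_circRNA000362, taken up after its values were seen, was at 118, 119 and 245 in Control against 534, 734 and 309.9 in CUS. In that ring every CUS library was above every Control library (log2 difference 1.45, SE 1.06, limma adjusted p = 0.872), and the contrast between the rings was not tested. The Senp5 ring mmu_circRNA004214, of a SUMO protease gene with the processed pseudogene Gm15696, was at 1065, 119 and 630.4 in Control and 0 in each CUS library.

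Elk4 codes for an ETS transcription factor that acts with serum response factor. Its gene overlaps Gm29103 (chromosome 1, 131962954 to 132014486) on the plus strand. Here mmu_circRNA000514 was at 369, 212 and 915 in Control and mmu_circRNA000515 at 369, 189 and 963, both at 0 in all CUS libraries. The levels of these rings follow each other closely from library to library, and whether they share reads was not tested. The third Elk4 ring, mmu_circRNA000516, was at 1065, 2153 and 1998 in Control against 1439, 1495 and 636 in CUS, with overlap. Summed over the 3, Elk4 was at 1803, 2554 and 3875 in Control against 1439, 1495 and 636 in CUS, without overlap (log2 difference -1.20, limma adjusted p = 0.748).

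The ring of Lsm14a, a P-body component, listed with the TEC gene Gm44567 (mmu_circRNA009226), was the most abundant of the members named as lower. It was at 1313, 1472 and 1931 in Control against 0, 893 and 799 in CUS, so the groups did not overlap (log2 difference -2.27, SE 0.97, limma adjusted p = 0.577). Without CUS replicate 1, the library at 0, the log2 difference was -0.84. The rings of Insig2 (a regulator of sterol synthesis, mmu_circRNA000451), Kansl1l (mmu_circRNA000291, 5 listed genes) and Etv6 (an ETS repressor, mmu_circRNA009076) had log2 differences of -2.74, -2.60 and -2.30. Insig2 was at 401, 734 and 636 in Control against 0, 0 and 337 in CUS. Etv6 was at 249, 615 and 559 in Control against 0, 0 and 429 in CUS, with overlap. Kansl1l was at 345, 376 and 1338 in Control against 118, 0 and 92.4 in CUS. Another Kansl1l ring, mmu_circRNA000293, was at 739, 1422 and 231 in Control against 2288, 1353 and 489 in CUS. Its CUS mean was the higher one, and this contrast was not tested either.

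**Figure D5:**
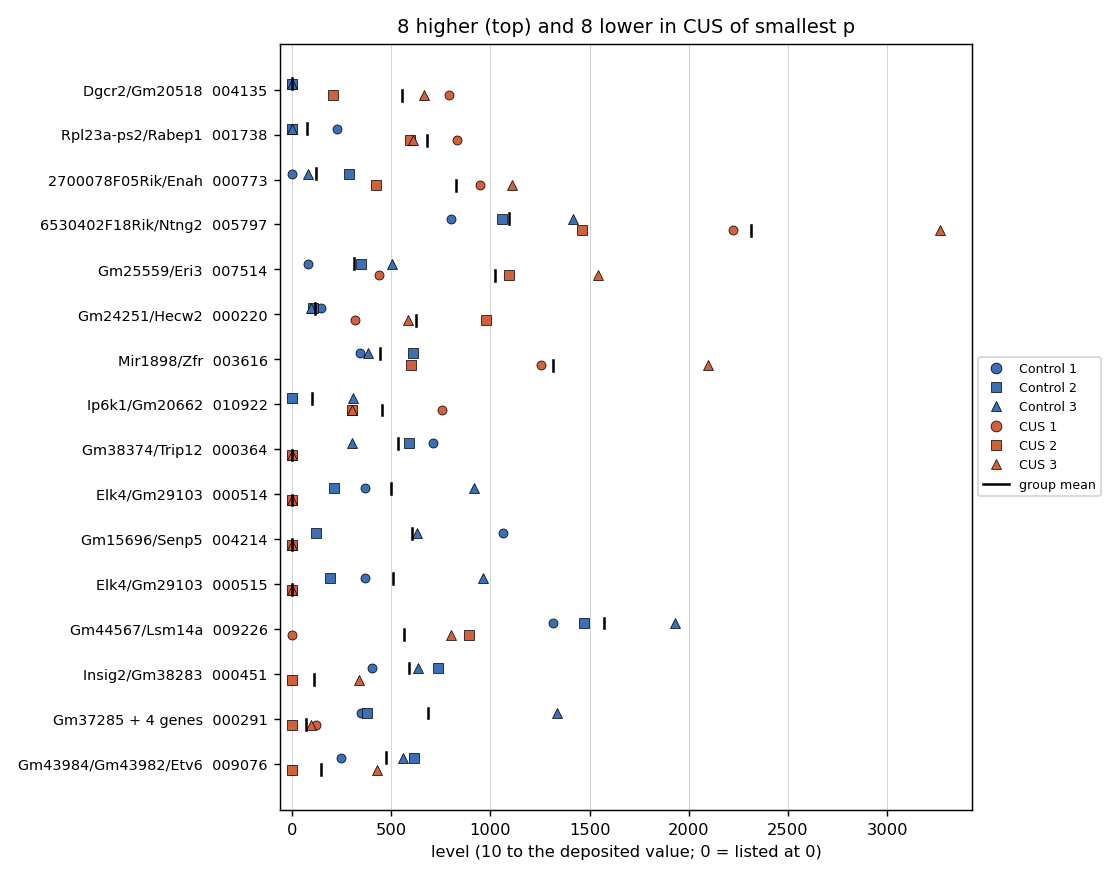
Level per library (x axis, linear) of the 8 members higher (upper rows) and 8 lower (lower rows) in CUS with the smallest p. Blue is Control, orange CUS, shapes mark replicates, black ticks are group means. Points at 0 are libraries in which the circRNA is listed at 0: all 3 Control libraries for Dgcr2, and all 3 CUS libraries for Trip12, Senp5 and 2 rings of Elk4.

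At the level of gene sets, the 786 members fell into 486 sets of identical gene lists, 335 of them with 1 circRNA and 19 with 5 or more. After summing levels by set, 231 sets of members were tested among 2382 sets, and 0 passed adjustment (lowest limma adjusted p = 0.748, background 0.0%). At an unadjusted p under 0.05, 8 passed (3.46% against 5.71%), 4 higher (1.73% against 2.56%) and 4 lower (1.73% against 3.15%). In 12 sets (5.19%, background 5.79%) every CUS library lay above every Control library, and in 13 (5.63%, background 5.54%) below. The set with most circRNAs, 9, was Srcap, a chromatin remodeller gene, with the overlapping model Gm42715, at 2255, 1669 and 3187 in Control against 2238, 1014 and 809.96 in CUS.

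Cadps codes for a priming factor of dense-core vesicles. It holds the 5S ribosomal RNA gene n-R5s45 (chromosome 14, 12427532 to 12427641) in an intron, and 8 members listed the pair. Their sum was 2279, 2516 and 3000.03 in Control against 1117, 745 and 1968 in CUS, every CUS library below every Control library (log2 difference -1.10, SE 0.52, limma adjusted p = 0.778). The 12 single-gene rings of Cadps summed to 2989, 2272 and 2633 in Control against 2512, 2932 and 2074 in CUS, with overlap. Tulp4 also had 8 members, with n-R5s26, at 2899.6, 2236 and 1764 in Control against 2789, 2851 and 5199.97 in CUS, with overlap. The member sums of Srcap and Cadps thus had lower means in CUS, and that of Tulp4 a higher one, none past adjustment.

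Host genes were read against gene lists, counting a member when any of its genes was listed. The synapse and channel list held 29 members of 9 genes, and 16 were tested. Of these, 2 were fitted higher and 14 lower, where 52.8% of all tested circRNAs were fitted lower. The median log2 difference was -0.76 against -0.12 over all tested. Among the 14, the Cadps rings mmu_circRNA003125, mmu_circRNA003128 and mmu_circRNA003129 had the higher mean level in CUS. Their means were 153.8, 76.9 and 71.8 in Control against 184.8, 105.1 and 106.9 in CUS, so their sign depends on the log scale. Of the 16, 7 were rings of the Cadps pair, so they share a source, and 1 (against the 6.01% of all tested given above) passed an unadjusted p under 0.05. That was mmu_circRNA006014 of Kcnh7, a potassium channel of the ERG family, with Gm22020, at 287, 691 and 192 in Control and 0 in each CUS library, so it had passed the filter through the Control libraries alone. The main Cadps ring, mmu_circRNA003123, was at 1181, 1159.8 and 2074 in Control against 696, 654 and 777 in CUS, without overlap. The Stxbp5l ring mmu_circRNA004275, of a tomosyn gene that restrains vesicle fusion, was at 985, 151 and 766 in Control against 359.7, 979 and 1408 in CUS.

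The chromatin and transcription list held 18 members of 7 genes, 5 of them tested, with 4 fitted higher and 1 lower (median log2 difference 1.35, against -0.12 over all tested). The Chd2 ring mmu_circRNA009423, fitted higher, had the higher mean level in Control, 142.9 against 120.7 in CUS. Of these 5, 2 were rings of Satb1, which share a source, and 0 passed an unadjusted p under 0.05 (limma). Its most abundant, mmu_circRNA000042 of the nuclear receptor coactivator Ncoa2, was at 801, 688 and 1272 in Control against 575, 1635 and 318 in CUS, with overlap. The ubiquitin list had 9 members with 2 tested, the zinc finger list 13 with 2 tested, and the clustered protocadherins 3 with 1 tested. In each of the 5 lists 0 members passed adjustment (limma).

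Among members with miRNA genes, the ring of Brsk2, a kinase gene of neuronal polarity, with Mir3104 (chromosome 7, 141992179 to 141992241) touching an exon, was at 1972, 875 and 2562 in Control against 572, 1237 and 546 in CUS. The groups overlapped through CUS replicate 2. The 2 rings of Arsb, a lysosomal sulfatase gene with Mir5624 in an intron, summed to 973, 809 and 2500.2 in Control against 566, 584 and 356 in CUS, without overlap. The ring of Inpp5b with Mir698 was at 449, 144 and 229 in Control and 0 in each CUS library. None passed adjustment (limma). All 3 hosts had the lower mean in CUS, and directions were not counted over all members with miRNA genes. Of those given above, the rings of Zfr, Eri3 and Crim1 had the higher mean in CUS, and that of Maml2 in Control. Single-gene rings of Arsb and Inpp5b overlapped between groups, and those of Brsk2 were higher in every CUS library than in every Control library.

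Depth and tissue markers were read beside these values, and their influence on them was not tested. The Control libraries held 4329 to 4606 circRNAs above 0 each and the CUS libraries 3991 to 4273, without overlap, and the part of this in the rings listed at 0 in CUS was not tested. The read number behind a level is unknown, so no counting interval is given. Every library's lowest level was 17 steps of its own scale, and relative depth, the inverse of that step, was 90.8% to 100% in Control and 81.9% to 89.8% in CUS. Circular RNAs of 7 of 9 neuron markers were found (summed 10496 to 16561 in Control and 15239 to 17912 in CUS, Grin1 and Snap25 at 0). Dentate granule markers (2 of 5) summed to 1195 to 1883 and 2910.2 to 4395, CA pyramidal markers (3 of 6) to 3926 to 7742 and 2627 to 3556, and oligodendrocyte markers (3 of 7) to 758 to 1545 and 1873 to 2989, in Control and CUS. Those 3 lists did not overlap between groups, and their part in the results was not tested. In bulk tissue, fewer cells of a type and less RNA per cell cannot be told apart. The marker sums are of circRNAs of a few hosts, so cell numbers were not measured.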

How the data were processed

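The authors deposited 1 table with a log10 value per circRNA and library, 0 where none is given. Unit and circRNA caller were not given in the sources used here, while the build mm9 and the tools StringTie, DESeq and edgeR are named in the submitters' processing notes with no role. Poly(A) RNA was purified, per the labels' protocols, although rings lack a poly(A) tail. Libraries were stranded and carried molecular identifiers. Values were raised to powers of 10. At least 99.9% of values under 300 steps were whole multiples (within 0.05) of a step particular to the library.

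Gene types and positions came from GENCODE vM21 (GRCm38) by identifier (1065 of 1073 matched) and are of genes, since the table was used without circRNA coordinates. Mature miRNAs came from RefSeq.

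All circRNAs above 0 in at least 3 libraries were fitted together with limma 3.58.1 (R 4.3.3, variance trend) on log2(level + 45.5), the pseudocount being the median of the libraries' lowest levels, with Benjamini-Hochberg adjustment at 0.05. Such differences understate the change of low circRNAs. Library totals used exact two-sided permutation tests. Python 3.11.15, pandas 2.3.3, scipy 1.17.1 and matplotlib 3.10.9 were used.

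Named members were the 10 of highest mean, the 8 higher and 8 lower of smallest p with a mean above the median of tested circRNAs, and the top members, by level or number of genes, of each class, list and gene set (1 is not reported here). Members and lists were chosen with earlier results of these data known. Alternatives were other pseudocounts and filters, no trend, quantile normalization, narrower member sets, a replicate block and leaving out each library.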

Additional observations from a re-analysis of the deposited data

How the results depend on the processing

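With limma, 0 members and 0 gene sets passed adjustment under each of the 13 alternatives. Members at an unadjusted p under 0.05 numbered 17, and 4 of the 71 tested when every library had to be above 0 (fewer circRNAs tested), and 14 to 19 with each library left out. The 16 members named by p kept their direction in 196 alternative fits, which is not separate support. They were picked for their p in these same libraries. Rings at 0 in every library of a group, such as those of Dgcr2 and Trip12, could not reverse. Quantile normalization moved the median log2 difference of all tested circRNAs from -0.12 to -0.03, and that of the members from -0.23 to -0.14. The members' median was 0.005 with no filter, -0.089 at 5 times the pseudocount, and -0.208 to -0.075 with each library left out, the value nearest 0 being that without CUS replicate 1.

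Differences that were not past a threshold changed sign as follows, and the cause was not tested. The members' share of signal, CUS minus Control, was -0.0931 percentage points and ranged from -0.350 to 0.112 without each library. The detection difference against single-gene circRNAs was -0.0624 points for exonic circRNAs only. The median level difference (log2) was 0.0366 with only 2 identifiers, 0.00689 for circRNAs in at least 3 libraries, 0.00435 with a protein-coding gene, and -0.0249 to 0.00731 without each library. Class sums, CUS minus Control, ranged without each library from -616 to 1105 (several kinds), -2179 to 2929 (small RNA), -1347 to 1201 (several protein-coding), -537 to 327 (identifier not annotated) and -1325 to 1155 (no protein-coding gene). By position the sums ranged from -3546 to 837 (a pair not overlapping). By nesting in the longest gene they ranged from -4426 to 3797 (inside, in introns) and -4765 to 2409.9 (not all inside). For circRNAs in at least 3 libraries the sums were -481 (several kinds) and -457 (several protein-coding), and with only 2 identifiers 583 (identifier not annotated).

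Same-numbered libraries of the groups did not deviate together (correlations -0.0109, -0.0252 and -0.0204), so no pairing by number was seen in these levels. The labels do not say whether the numbers pair the samples, and a weak pairing could go unseen. With the replicate block, 15 members had an unadjusted p under 0.05, 0 passed adjustment, and the difference in members above 0 stayed -12.3 (exact permutation p = 0.5). The read number behind a level is unknown, so a circRNA at 0 is not shown to be absent, and a difference between low circRNAs may not be detectable.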
